A study of Mus musculus with 36 samples.

Results

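Ly6d, Sprr1a and Npy are described here in mouse liver, beside Ly6a, Ly6c1 and Ly6e, which are other members of the Ly6 family and serve as comparison genes. These 6 genes were found by their symbols in a table of 49315 genes, and each symbol matched 1 row. Ly6d, Sprr1a and Npy were chosen by their levels in these same libraries, which differed very widely between genotypes, so their levels, folds and fitted differences are given as a description with no test. Ly6a, Ly6c1 and Ly6e were not picked for a change, and their differences were tested.

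The livers came from male mice aged 11 to 12 weeks carrying a CRISPR-made substitution in LXRalpha, a nuclear receptor for oxysterols that switches on genes of cholesterol efflux and fatty acid synthesis. Tryptophan 441 of the receptor was kept on both copies of the gene (W/W), replaced by phenylalanine on 1 copy (W/F) or replaced on both (F/F). Mice of each genotype ate normal chow, or were fed for 4 weeks on a MASH diet, a high-fat and high-cholesterol feed meant to bring on metabolic steatohepatitis, with daily gavage of vehicle or of the LXR agonist T0901317 at 10 mg/kg in the last 2 weeks. This gives 9 groups of 4 libraries, named by genotype and by chow, vehicle or T0901317, and every vehicle and T0901317 group was on the MASH diet. The chow mice were a separate cohort and are listed without gavage, so diet, gavage with vehicle and cohort cannot be told apart. In the comparisons with chow below, diet stands for all of these together. The labels name no promoter or cell type that limits the substitution, and levels of mRNA cannot show whether a library carries it, so the genotype labels have no check here. The labels do not say how many litters or breeding pairs a group came from, and p-values measure only the spread between these libraries.

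Ly6d encodes a small protein anchored to the outer cell membrane by a lipid, known from keratinocytes and from early B lymphocytes. Sprr1a encodes a small proline-rich protein that is cross-linked into the cornified envelope of stratified epithelium, and it is also a well-known product of injured neurons. Npy encodes neuropeptide Y, a secreted peptide of sympathetic and central neurons that acts on G protein-coupled receptors. None of these genes is known as a marker of the resting hepatocyte. Ly6a (Sca-1), Ly6c1 and Ly6e are lipid-anchored proteins of the same fold as Ly6d, and Ly6a and Ly6e are known to respond to interferon.

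By the GENCODE M21 annotation of the GRCm38 build, which is the build named in the submitters' processing notes, Ly6d (ENSMUSG00000034634) is a protein-coding gene on the minus strand of chromosome 15 from 74762056 to 74763620. Ly6e (ENSMUSG00000022587, 74955051 to 74959905, plus strand), Ly6a (ENSMUSG00000075602, 74994877 to 74998031, minus strand) and Ly6c1 (ENSMUSG00000079018, 75044018 to 75048830, minus strand) follow on the same chromosome. Sprr1a (ENSMUSG00000050359) is on the minus strand of chromosome 3 from 92483952 to 92485895, and Npy (ENSMUSG00000029819) is on the plus strand of chromosome 6 from 49822710 to 49829507. Of all stretches of 50 bases in their transcripts, Ly6d, Sprr1a, Npy and Ly6e shared 0 with the transcripts of any other gene. Ly6a shared 19% of its stretches, most often with Ly6c1, and Ly6c1 shared 32.8%, most often with Ly6c2, so the reads of Ly6a and Ly6c1 may be split between neighbours and their levels are less certain.

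Promoter sequences of GRCm38.p6 from RefSeq were at hand for 3 of the 6 genes (Sprr1a, Npy and Ly6c1). Those of Sprr1a and Npy are shown because these genes were at or near 0 in W/W livers on chow and on vehicle and were measured in F/F livers on vehicle. Each line runs 5′ to 3′ on the transcribed strand from 200 to 21 bases before the RefSeq start site, at chr3:92485902-92486081 for Sprr1a and chr6:49822510-49822689 for Npy. Capitals mark matches on either strand to an AP-1 site, spelled TGANTCA, to a TATA box, spelled as TATAAA, or to the GC box of factors such as Sp1, which is spelled GGGCGG.
Sprr1a: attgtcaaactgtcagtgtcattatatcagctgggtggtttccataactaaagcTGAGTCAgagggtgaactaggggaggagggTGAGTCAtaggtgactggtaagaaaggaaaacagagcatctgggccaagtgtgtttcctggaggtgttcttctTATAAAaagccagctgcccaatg
Npy: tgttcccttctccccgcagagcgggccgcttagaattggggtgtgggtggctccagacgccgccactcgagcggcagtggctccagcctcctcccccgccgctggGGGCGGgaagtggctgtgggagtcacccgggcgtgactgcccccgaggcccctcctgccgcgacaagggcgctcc
The Sprr1a line holds 2 AP-1 matches, which begin 146 and 116 bases before the start, and 1 TATA match, which begins 43 bases before it. The Npy line holds neither of these motifs and holds 1 GC box, 95 bases before the start. In windows of 300 bases around 32851 RefSeq start sites (250 before and 50 after), 7.81% held an AP-1 match, 0.46% held at least 2, 13.6% held a TATA match and 35.7% held a GC box. A direct repeat of AGGTCA with a gap of 4 bases and at most 1 mismatch in each copy, the kind of site LXR is known to bind, was found in none of the windows of these 3 genes and in 1.75% of all windows. A match or its absence in a window of this size is a description of the letters only.

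Depth recovered from the steps of the deposited values was 18.1 to 35.8 M reads per library (M, 1e+06), with a median of 23.9 M. Values are in TPM, a relative abundance that is corrected for transcript length, in which the levels of genes of different length can be compared. The livers differed far beyond these 6 genes. Of the 16638 genes tested, 76.5% differed between F/F and W/W on vehicle, and the median gene was 0.70 higher on the log2 scale, so each difference below has to be read against that shift. After the libraries were rescaled to a common median, the split of these calls moved from 11538 higher and 1186 lower to 5162 higher and 4674 lower. Replicate 2 of W/F on T0901317 stood apart from the other 3 libraries of its group in Ly6d, Ly6a and Ly6e and in markers of macrophages, whose summed level was 1002 TPM in it and 150 to 217 TPM in the others. Its effect is given beside the main differences of Ly6d, Sprr1a, Ly6a and Ly6e that rest on it, and counts over gene lists for T0901317 in W/F include it.

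Ly6d was close to absent from the livers of W/W and W/F mice on chow and among the abundant transcripts in F/F livers and in W/F livers on the MASH diet with vehicle. The W/W libraries on chow held 2.76, 1.59, 0.92 and 2.40 TPM, and the W/F libraries on chow held 0.322, 1.11, 2.34 and 2.19 TPM. The F/F libraries on chow held 105, 82.2, 275 and 259 TPM, so all 4 lay far above every W/W and W/F library on chow. The group means on chow were 1.92 ± 0.83 TPM for W/W, 1.49 ± 0.95 TPM for W/F and 180 ± 101 TPM for F/F (SD, n = 4).

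On the MASH diet with vehicle, Ly6d held 2.91, 5.85, 4.74 and 3.17 TPM in W/W livers. It held 565, 303, 591 and 929 TPM in W/F livers, and 576, 1385, 1071 and 944 TPM in those of F/F mice. A single mutant copy was therefore accompanied by at least 303 TPM on this diet with vehicle and at most 2.34 TPM on chow. The means were 4.17 ± 1.38, 597 ± 257 and 994 ± 335 TPM (SD, n = 4). The F/F mean was 238 times and the W/F mean 143 times the W/W mean, and the fitted log2 differences from W/W were 7.56 (SE 0.51) and 6.78 (SE 0.51). The W/F and F/F libraries overlapped. Between chow and the MASH diet with vehicle, the W/F mean of Ly6d differed 401-fold, the F/F mean 5.51-fold and the W/W mean 2.17-fold, with no overlap of libraries in any genotype.

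T0901317 went with opposite differences of Ly6d in W/W and W/F livers. In W/W livers on T0901317 Ly6d held 123, 169, 126 and 62.2 TPM, all above the highest vehicle library of 5.85 TPM. In W/F livers on T0901317 it held 4.16, 32.1, 3.06 and 2.81 TPM, all below the lowest vehicle library of 303 TPM. In F/F livers on T0901317 it held 606, 519, 272 and 696 TPM, which overlapped the F/F vehicle libraries. The W/W mean was 28.8 times its vehicle mean, the W/F mean was 56.6 times lower than its vehicle mean, and the F/F mean was 1.90 times lower. On the log2 scale these differences were 4.5, -6.27 and -0.94, each with an SE of 0.51. Without replicate 2 of W/F on T0901317 the W/F difference was -7.01, and the W/F mean of 3.34 TPM was 179 times lower than its vehicle mean. On T0901317 the order of the genotypes was thus F/F, W/W, W/F, where W/W and W/F did not overlap (62.2 TPM and above against 32.1 TPM and below).

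Over the 9 groups, Ly6d had its highest mean in F/F on vehicle, followed by W/F on vehicle, F/F on T0901317, F/F on chow and W/W on T0901317, and each of these overlapped the next. A gap separated W/W on T0901317 from the remaining 4 groups, whose means were 10.5 (W/F on T0901317), 4.17, 1.92 and 1.49 TPM.

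**Figure D1:**
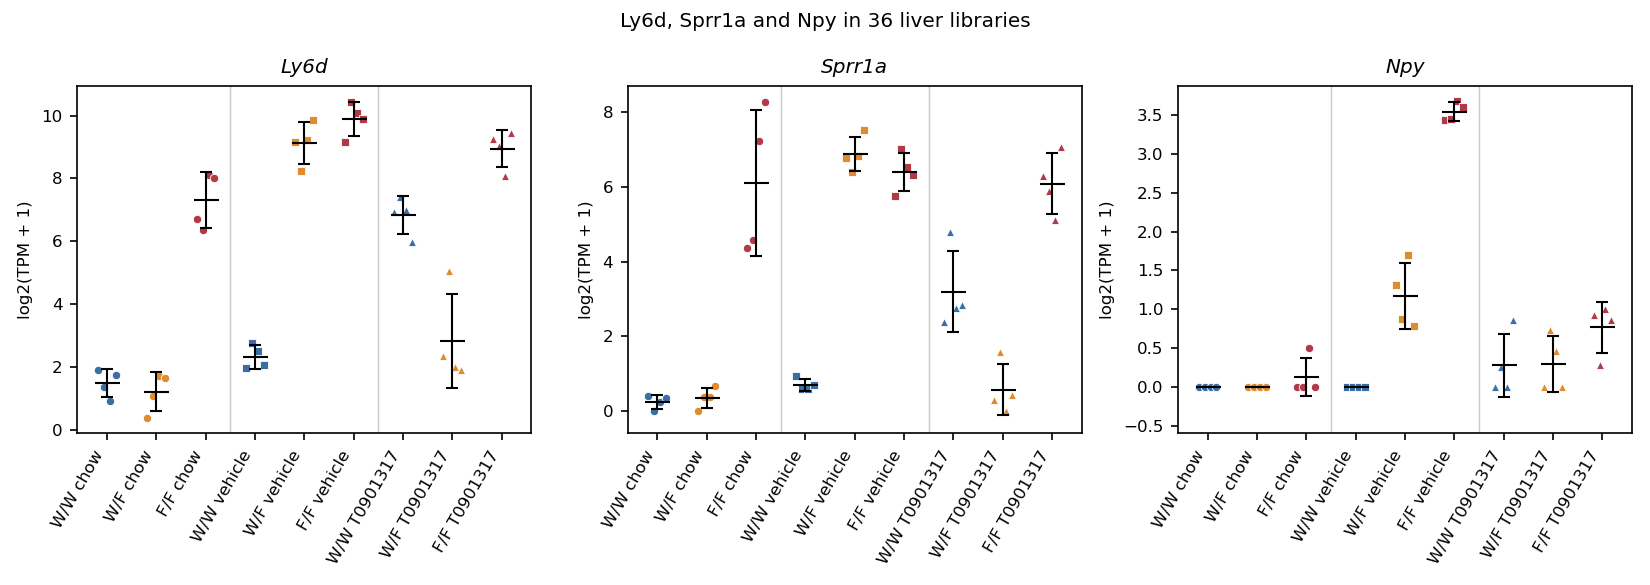
Level of Ly6d, Sprr1a and Npy as log2(TPM + 1) in each library (points) of the 9 groups, with the group mean and SD (bars, n = 4) and with genotype shown by colour and treatment by marker shape. Ly6d and Sprr1a are high in F/F under all 3 treatments, high in W/F on vehicle and not on chow, intermediate in W/W on T0901317 and low elsewhere, while Npy exceeds 9 TPM in F/F on vehicle and stays under 3 TPM in all other groups.

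Sprr1a followed much the same order of groups at lower levels. On chow it held 0.319, 0, 0.170 and 0.261 TPM in W/W and 0, 0.292, 0.287 and 0.578 TPM in W/F, which is at most 4 reads per library. The F/F libraries on chow held 19.4, 22.9, 148 and 310 TPM, with a mean of 125 ± 137 TPM (SD, n = 4). Replicates 3 and 4 of that group were the high ones for Sprr1a and also for Ly6d (275 and 259 TPM against 105 and 82.2 TPM in replicates 1 and 2).

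On vehicle, Sprr1a held 0.896, 0.502, 0.50 and 0.609 TPM in W/W livers (4 to 7 reads). It held 109, 83.3, 112 and 182 TPM in W/F livers, and 52.8, 127, 91.0 and 78.2 TPM in those of F/F mice. The means were 0.627 ± 0.187, 122 ± 42.5 and 87.2 ± 30.9 TPM (SD, n = 4), so W/F and F/F were 194 and 139 times the W/W mean and overlapped each other. The fitted log2 differences from W/W were 6.18 and 5.70 (SE 0.58 each). For F/F, in which Sprr1a was already high on chow, the libraries on vehicle overlapped those on chow.

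On T0901317, Sprr1a held 4.24, 26.8, 5.70 and 6.19 TPM in W/W livers. It held 0.220, 1.96, 0 and 0.354 TPM in W/F livers, and 76.8, 58.0, 33.9 and 133 TPM in those of F/F mice. As with Ly6d, every W/W library on the agonist lay above every W/W vehicle library, and every W/F library on the agonist lay below every W/F vehicle library. The W/W mean of 10.7 ± 10.8 TPM (SD, n = 4) rests partly on replicate 2, and the other 3 libraries, between 4.24 and 6.19 TPM, had a mean of 5.38 ± 1.0 TPM (SD, n = 3), which is 8.58 times the vehicle mean. The log2 differences between T0901317 and vehicle were 2.5 for W/W, -6.31 for W/F and -0.31 for F/F livers (SE 0.58 each), and without replicate 2 of W/F on T0901317 the W/F value was -6.64. The order of the 9 group means differed from that of Ly6d at the top, where F/F on chow, W/F on vehicle, F/F on vehicle and F/F on T0901317 each overlapped the next. Below them came W/W on T0901317, separated from its neighbours on both sides, and then 4 groups with means under 1 TPM.

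**Figure D2:**
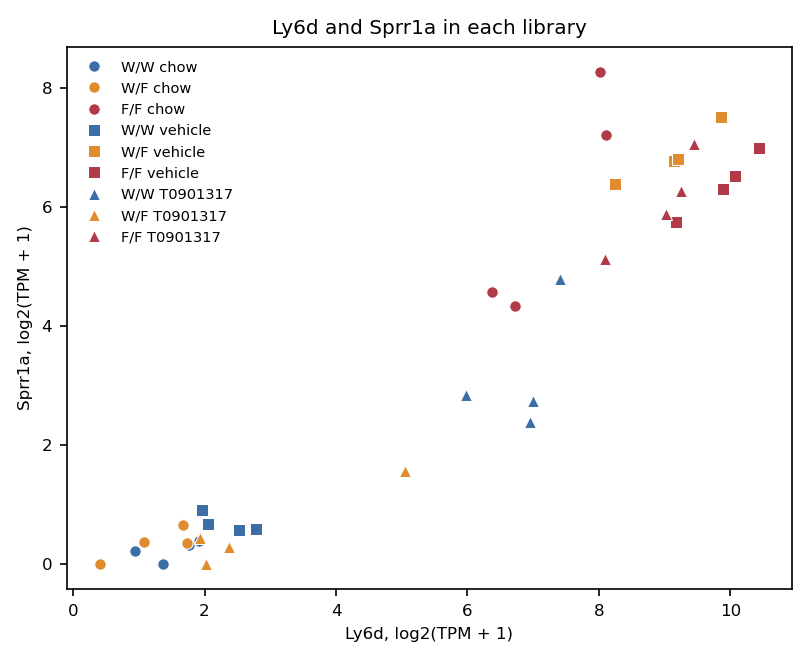
Ly6d against Sprr1a as log2(TPM + 1) in each of the 36 libraries, with genotype shown by colour and treatment by marker shape. The libraries run along 1 band from W/W and W/F on chow at the lower left to F/F and W/F on vehicle at the upper right, with W/W on T0901317 between them and replicates 3 and 4 of F/F on chow above the band.

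Over the 36 libraries, Pearson's r of log2(TPM + 1) was 0.95 between Ly6d and Sprr1a, 0.65 between Ly6d and Npy and 0.57 between Sprr1a and Npy. These values describe libraries that form separate groups and share their composition, and they carry no p.

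Npy was detected at its highest level in a single group. In all 12 libraries of W/W on chow, W/F on chow and W/W on vehicle it was at 0 reads. In F/F on vehicle it held 9.84, 9.97, 11.9 and 11.2 TPM (49, 49, 59 and 61 reads), with a mean of 10.7 ± 0.98 TPM (SD, n = 4). With 3 reads per library taken as the limit that a count of 0 allows, which is at most 0.547 TPM in W/W on vehicle and covers counting error only, the F/F mean was at least 19.6-fold higher than W/W.

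In W/F on vehicle Npy held 1.48, 0.831, 2.26 and 0.726 TPM (4 to 11 reads), all below the F/F vehicle libraries and above the 0 of W/W. This mean of 1.33 ± 0.71 TPM (SD, n = 4) was at least 2.42-fold higher than the limit in W/W on vehicle. In F/F on T0901317 Npy held 0.902, 0.216, 1.00 and 0.814 TPM (1 to 7 reads), and the F/F mean on vehicle was 14.6 times higher than that on T0901317, with no overlap. In W/W and W/F on T0901317 and in F/F on chow the group means were 0.252, 0.260 and 0.103 TPM, from 6, 6 and 2 reads per group, and these groups overlapped those at 0. Unlike Ly6d and Sprr1a, Npy was thus near the limit of detection in F/F on chow, where 1 library held 2 reads and 3 held none.

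A gene was tested where 4 or more libraries reached 1 TPM. All 6 genes passed, Ly6d with 34 such libraries, Ly6a and Ly6e with 36, Sprr1a with 21, Ly6c1 with 10 and Npy with 7. Sprr1a, Npy and Ly6c1 passed only through the groups in which they were high, so a difference was built into their passing. For Ly6c1, 7 of its 10 such libraries were F/F and 3 were not, too few to pass alone.

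Among the comparison genes, Ly6e was the one that moved with the mutant receptor most widely, by folds far below those of Ly6d. It held 371, 292, 417 and 422 TPM in F/F on chow against 119, 163, 111 and 134 TPM in W/W on chow, which do not overlap. On vehicle it held 84.4, 101, 113 and 114 TPM in W/W livers, 517, 472, 486 and 583 TPM in W/F livers and 586, 827, 646 and 566 TPM in those of F/F mice, with both mutant groups above every W/W library. On T0901317 it held 92.5, 145, 119 and 116 TPM in W/W livers, 112, 421, 134 and 142 TPM in W/F livers and 707, 507, 403 and 577 TPM in those of F/F mice. The F/F libraries were above all W/W libraries there, and W/F overlapped W/W.

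Ly6e was higher in F/F than in W/W by 1.5 on chow (adjusted p = 2.02e-05), by 2.65 on vehicle (adjusted p = 7.75e-11) and by 2.19 on T0901317 (adjusted p = 1.86e-08) on the log2 scale, where 46.7%, 76.5% and 63.2% of all genes tested differed. It was higher in W/F than in W/W by 2.31 on vehicle (adjusted p = 2.85e-09, SE 0.25), where 68.5% of all genes differed, and not called on chow (-0.29, adjusted p = 1) or T0901317 (0.57, adjusted p = 0.169, and 0.14, adjusted p = 0.722, without replicate 2), where 0.487% and 9.88% differed. Between vehicle and T0901317 it fell by 1.56 in W/F (adjusted p = 3.06e-06, against 65.9% of all genes), and fell by 1.99 without replicate 2. In W/W and F/F the agonist differences of 0.19 and -0.27 were not called. The MASH diet with vehicle against chow raised it in W/F by 2.26 (adjusted p = 4.62e-09) and in F/F by 0.80 (adjusted p = 0.00731), where 61.0% and 55.8% of all genes differed. The F/F value was no longer called after rescaling (0.45, adjusted p = 0.0925). Ly6e was thus called in 7 of 12 contrasts by limma, and the median gene differed in the same direction in each of the 7.

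The genotype changed the response of Ly6e in 3 of 4 tests of that difference. The agonist response of W/F was 1.75 lower than that of W/W on the log2 scale (adjusted p = 0.000111, where 58.5% of all genes were called) and 2.18 lower without replicate 2 of W/F on T0901317. The diet response was 2.61 higher in W/F (adjusted p = 5.73e-07, 54.6% of all genes) and 1.15 higher in F/F (adjusted p = 0.00907, 46.0% of all genes) than in W/W, and the F/F value was not called after rescaling (adjusted p = 0.112). The agonist response of F/F differed from that of W/W by -0.46 (adjusted p = 0.33, where 30.4% of all genes were called). None of the 8 corresponding differences of Ly6a and Ly6c1 was called. Without replicate 2 of W/F on T0901317 the count over the 3 genes was 6 of 12 in place of 3, and the Ly6a agonist response of W/F minus W/W was -1.14 (adjusted p = 0.0406). Without replicate 4 of W/W on vehicle, at 19.4 TPM of Ly6a, the count was 5.

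**Figure D3:**
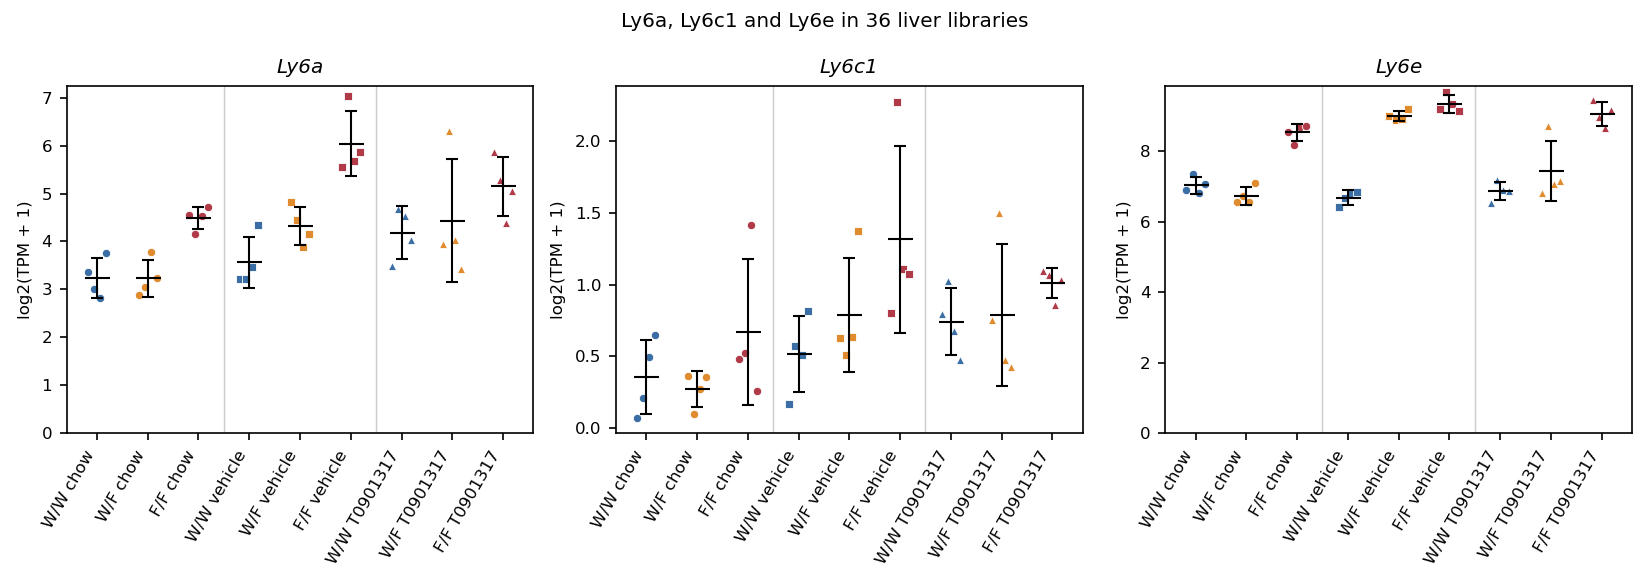
Level of Ly6a, Ly6c1 and Ly6e as log2(TPM + 1) in each library (points) of the 9 groups, with the group mean and SD (bars, n = 4) and with genotype shown by colour and treatment by marker shape. Ly6e is high in all 3 F/F groups and in W/F on vehicle, Ly6a is highest in F/F on vehicle with 1 library at 130 TPM, and Ly6c1 stays under 4 TPM everywhere.

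Ly6a held 9.31, 7.11, 6.02 and 12.6 TPM in W/W on chow and 22.4, 16.8, 22.1 and 25.5 TPM in F/F on chow, which do not overlap. On vehicle it held 8.30, 8.32, 10.1 and 19.4 TPM in W/W and 46.1, 130, 50.1 and 57.4 TPM in F/F, again apart. The W/F libraries on vehicle lay between 13.7 and 27.3 TPM and overlapped W/W. By limma, Ly6a was higher in F/F than in W/W by 1.25 on chow (adjusted p = 0.0167), 2.47 on vehicle (adjusted p = 5.05e-06) and 0.96 on T0901317 (adjusted p = 0.048) on the log2 scale, and higher on the MASH diet with vehicle than on chow by 1.09 in W/F (adjusted p = 0.0269) and 1.54 in F/F (adjusted p = 0.00271). Of these 5 calls in 12 contrasts, the vehicle comparison of F/F with W/W and the diet comparison in F/F were also called after rescaling (adjusted p = 0.000694 and 0.0139). The call on T0901317 was lost in 21 of the 36 fits that left out 1 library (adjusted p up to 0.172), the chow call without replicate 3 of W/W on chow (adjusted p = 0.0514), and the diet call in W/F without replicate 1 or 2 of W/F on chow or of W/F on vehicle (adjusted p up to 0.0853). Without replicate 2 of W/F on T0901317, 7 contrasts were called. T0901317 gave no call in any genotype, and neither did diet in W/W, where 10.8%, 65.9% and 35.1% of all genes were called for T0901317 in the order W/W, W/F, F/F and 12.9% for diet in W/W. In W/F on T0901317 replicate 2 held 78.5 TPM and the other 3 held 9.78 to 15.4 TPM.

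Ly6c1 was low in every group, from 0.210 ± 0.0998 TPM in W/F on chow to 1.71 ± 1.43 TPM for F/F on vehicle (SD, n = 4), which is 12 and 102 reads over the group. Its 2 calls, F/F against W/W on vehicle (0.80, adjusted p = 0.00702) and diet in F/F (0.65, adjusted p = 0.0369), came from libraries that overlap between the groups, in a gene that was tested only because of its F/F libraries, and nothing is read from them. Neither was called after rescaling (adjusted p = 0.146 and 0.167), and replicate 2 of F/F on vehicle, at 3.84 TPM, stood above the 0.746 to 1.16 TPM of the other 3. Without that library neither was called (adjusted p = 0.0752 and 0.266), and the diet call was also lost without replicate 1, 2 or 4 of F/F on chow. Per unit of length, Ly6d thus ran from under 2 TPM on chow in W/W to a higher mean than Ly6e in F/F on vehicle, while Ly6e was at 84.4 TPM or above in every library.

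**Figure D4:**
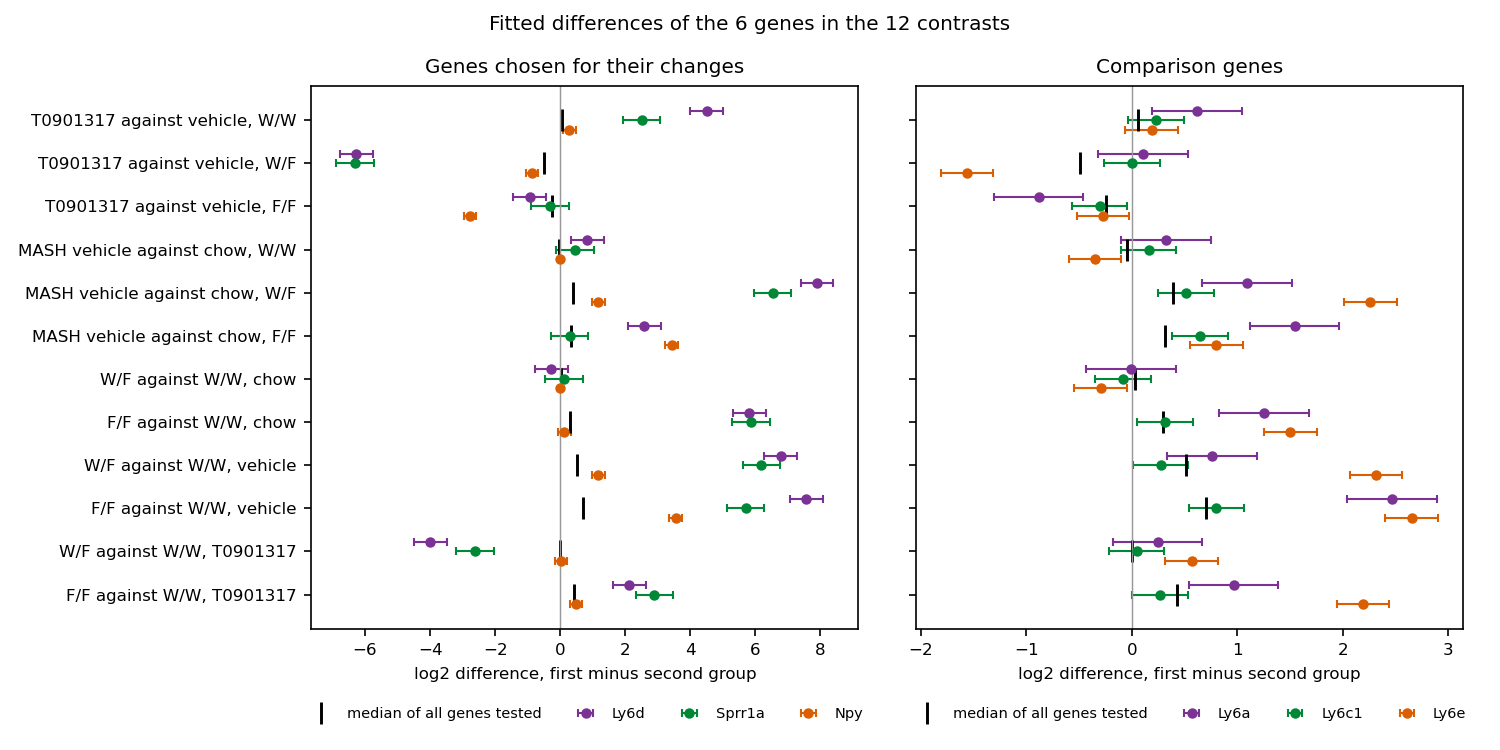
Fitted log2 differences with SE (bars) of the 6 genes in the 12 contrasts of groups, each the first group minus the second, with the median of all 16638 genes tested as a vertical tick. Ly6d and Sprr1a lie between 5 and 8 in F/F against W/W on chow and vehicle and near -6 for T0901317 in W/F, far from the median ticks, while Ly6c1 stays within 1 of 0.

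The Ly6, uPAR and three-finger family held 40 listed names, 38 of them in the table, 3 at 0 in all libraries and 16 past the filter. Leaving out Ly6d, 15 were tested, and between F/F and W/W on vehicle 9 rose, 1 fell and 5 were not called, with a median log2 difference of 1.11 against 0.70 over all genes, of which 69.3% rose and 7.13% fell. After rescaling the counts were 8 and 3. Plaur, the urokinase receptor of migrating cells, rose from 0.566 ± 0.338 to 24.1 ± 2.8 TPM (log2 4.02, adjusted p = 4.68e-14). Lynx1, which binds nicotinic acetylcholine receptors and is the gene next to Ly6d, rose from 0.416 ± 0.014 to 9.08 ± 1.05 TPM (log2 2.83, adjusted p = 3.74e-15). Cd59a, the complement inhibitor of this fold, was at 99.1 TPM in W/W and 94.3 TPM in F/F (log2 -0.08, adjusted p = 0.482) and was called lower after rescaling (-0.94, adjusted p = 1.95e-10). With T0901317 in W/F, 2 of the 15 rose and 5 fell, where 6.59% of all genes rose and 59.3% fell. In F/F against W/W on chow, 6 rose and 1 fell, where 43.0% of all genes rose and 3.65% fell. Limma called none between T0901317 and vehicle in W/W, beside 10.8% of all genes, and 1 of the 15 was at an unadjusted p under 0.05, beside 22.9% of all genes.

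In the list for the cornified envelope and stratified epithelium, to which Sprr1a belongs, 9 genes reached a group mean of 1 TPM. Of its 34 genes in the table, 16 were at 0 in all 36 libraries, and 8 passed the filter, Sprr1a among them. Sprr2a1, Sprr2a2 and Sprr2a3 shared 96.3%, 96.5% and 61.1% of their stretches of 50 bases with other genes. Their values at or near 0 are therefore uncertain. Sprr2b, which shared 14.1%, did not pass and was at 0.0313 TPM in W/W and 1.79 TPM in F/F on vehicle. Of the 7 other genes that passed, 6 rose and none fell between W/W and F/F on vehicle (4 and none after rescaling). Their median log2 difference was 1.83 against 0.70 over all genes. Between these groups Evpl went from 0.174 to 3.18 TPM, Tgm1 from 11.4 to 18.3 TPM and Lor from 2.0 to 2.21 TPM. Cstb, a cysteine protease inhibitor, rose from 103 ± 10.4 to 1281 ± 27.1 TPM (log2 3.63, adjusted p = 2.61e-15). Anxa1, an annexin of inflamed and epithelial tissue, rose from 3.30 ± 0.51 to 101 ± 13.8 TPM (log2 4.57, adjusted p = 4.57e-17), and Ppl, the desmosomal linker periplakin, rose from 5.97 ± 2.23 to 38.0 ± 8.44 TPM (log2 2.53, adjusted p = 7.99e-09). S100a10 was called higher (0.53, adjusted p = 0.0325) but lay at -0.34 after rescaling and was then not called. All 7 fell with T0901317 in W/F, 4 after rescaling, where 59.3% of all genes fell. With T0901317 in W/W, none of the 7 was called higher by limma and 1 was called lower (1 and 2 after rescaling), beside 10.8% of all genes called. At an unadjusted p under 0.05 there were 5 of the 7, beside 22.9% of all genes.

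Markers of stratified epithelium other than Krt10 stayed at or near 0 in the livers with high Sprr1a. Of 10 markers, Krt6a and Krt15 were at 0 in all 36 libraries, Krt13 and Krt1 in 35 and Dsg3 in 34, and 9 of 10 did not pass the filter. Krt5 averaged 0 TPM in W/W and 0.535 TPM in F/F on vehicle. Krt10, which passed, was at 3.56 TPM in W/W and 4.03 TPM in F/F on vehicle. The summed level of the 10 markers had group medians from 1.72 to 4.72 TPM, with 2.62 TPM in W/F on vehicle, where the Sprr1a mean was 122 TPM. The part of such cells in the Sprr1a level was not tested.

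The list of NPY peptides, receptors and peptidases held 25 genes, of which 8 were at 0 in all libraries and 5 passed the filter, Npy included. Cpe and Pam, enzymes that trim and amidate peptide hormones such as neuropeptide Y, rose between W/W and F/F on vehicle. Cpe rose from 0.742 ± 0.136 to 192 ± 7.83 TPM (log2 6.79, adjusted p = 1.48e-15) and Pam from 3.54 ± 0.70 to 20.8 ± 3.0 TPM (log2 2.27, adjusted p = 4.33e-13). Dpp4, a peptidase that shortens neuropeptide Y, fell from 37.7 ± 4.8 to 30.4 ± 2.3 TPM (log2 -0.29, adjusted p = 0.0318), and Agrp was not called (0.49, adjusted p = 0.0559). In F/F on chow, where Npy was at 2 reads in all, Cpe was already at 32.3 TPM against 0.302 TPM in W/W (log2 4.39, adjusted p = 4.04e-10). With T0901317 in W/F Cpe fell from 24.0 to 1.27 TPM (log2 -3.61, adjusted p = 2.46e-09), and in W/W it was at 0.817 TPM on the agonist and 0.742 TPM on vehicle. Neuronal markers stayed low: of 10, Th was at 0 in all 36 libraries and Nefl in 35, 1 passed the filter, none was called between F/F and W/W on vehicle, and their summed level had group medians from 2.33 to 6.94 TPM. Other cell lists were higher in F/F there, where 69.3% of all genes rose. Schwann cell markers (3 of 8 tested, all 3 called higher) had a median sum of 3.17 TPM in W/W and 12.3 TPM in F/F on vehicle. Sox10 of that list was not tested and was at 0 in 26 libraries. Megakaryocyte and platelet markers (4 of 8 tested, all 4 higher) had 3.20 and 32.7 TPM. In F/F on chow, where Npy was at 2 reads in all, the median sums of these lists were 9.75 and 15.2 TPM. The part of these cells in the Npy level was not tested.

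Sprr1a and Npy are both known from injured neurons, and the list of that response held 15 other tested genes. Of these, 10 rose and 3 fell between W/W and F/F on vehicle (7 and 5 after rescaling), with a median of 1.04 against 0.70 over all genes. The stress transcription factors of the list were among those that rose. Atf3 rose from 1.54 ± 1.04 to 65.9 ± 8.56 TPM (log2 4.81, adjusted p = 1.63e-12), Klf6 from 4.93 ± 2.05 to 63.7 ± 9.74 TPM (log2 3.49, adjusted p = 1.5e-12) and Jun, a subunit of AP-1, from 30.3 ± 9.08 to 140 ± 16.1 TPM (log2 2.20, adjusted p = 1.69e-08). Lifr, a cytokine receptor, fell from 42.7 ± 5.30 to 20.6 ± 1.32 TPM (log2 -1.01, adjusted p = 0.00113), and Arg1, the urea cycle arginase of hepatocytes, fell by 0.42 (adjusted p = 0.0178). In W/F on T0901317 against vehicle, 3 of the 15 rose and 9 fell (4 and 7 after rescaling), and Atf3 went from 53.8 to 2.94 TPM (log2 -4.27, adjusted p = 1.47e-10). With T0901317 in W/W, where the Ly6d mean was 28.8 times and the Sprr1a mean 17.1 times that on vehicle (8.58 times without replicate 2), limma called none of the 15, beside 10.8% of all genes. At an unadjusted p under 0.05 there were 4 of the 15, beside 22.9% of all genes. In that comparison Atf3 was at 3.15 against 1.54 TPM (adjusted p = 0.238), Jun at 27.3 against 30.3 TPM (adjusted p = 0.712) and Plaur at 0.697 against 0.566 TPM (adjusted p = 0.853).

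Interferon-stimulated genes were described because Ly6a and Ly6e are counted among them. All 20 passed the filter, and between W/W and F/F on vehicle 16 rose and none fell (13 and 1 after rescaling), where 69.3% of all genes rose, with a median of 1.89 against 0.70 over all genes. Oas1a, a sensor enzyme of viral RNA, rose from 3.41 ± 0.97 to 43.3 ± 23.4 TPM (log2 3.23, adjusted p = 1.09e-09), Isg15 from 15.0 ± 2.1 to 90.1 ± 46.1 TPM (log2 2.40, adjusted p = 1.6e-08), and Bst2 was not called (-0.14, adjusted p = 0.552; called lower after rescaling). With the agonist in W/F none rose and 12 fell (3 and 5 after rescaling), where 59.3% of all genes fell. With the agonist in W/W, 2 of the 20 were called higher by limma and none lower, beside 10.8% of all genes called. The median there was 0.52 against 0.057 over all genes, and 7 of the 20 were at an unadjusted p under 0.05, beside 22.9% of all genes. On chow, where Ly6e differed by 1.5 between F/F and W/W, 4 of the 20 rose and 1 fell, where 43.0% of all genes rose and 3.65% fell. The median of the 20 on chow was 0.51 against 0.29 over all genes. The part of interferon in the Ly6e differences was not tested.

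The genes around the chosen genes did not share one pattern. Only protein-coding genes with a symbol were taken as neighbours, the nearest 5 on each side, at whatever distance. Of the 10 around Ly6d, Slurp1, Lypd2 and Slurp2, which are members of the same family next to Lynx1, were at 0 in all 36 libraries. Lynx1 and Gml, which shares 18.7% of its stretches of 50 bases with Gml2, rose between W/W and F/F on vehicle, as did Them6 (5.46 to 24.3 TPM, log2 1.98, adjusted p = 2.62e-11), while Ly6k was not called (0.79, adjusted p = 0.0652). Limma called none of these 4 neighbours with T0901317 in W/W (1 at an unadjusted p under 0.05), where Lynx1 was at 0.878 TPM and Ly6d at 120 TPM. Around Sprr1a, 1 of 10 neighbours was tested and it was not called, and its relatives Sprr3, Sprr4 and Sprr2k were at 0 in all libraries. Ivl, the envelope protein involucrin, never exceeded 0.303 TPM, and Sprr1b was at 0 in 33 libraries and reached 0.644 TPM. Around Npy, 6 of 7 tested neighbours rose, and Osbpl3, an oxysterol-binding protein relative, rose most (2.14 to 32.6 TPM, log2 3.46, adjusted p = 1.15e-11). In all, 9 of 12 tested neighbours were called and all 9 were higher, beside 69.3% of all genes, and after rescaling 7 were higher and 2 lower.

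**Figure D5:**
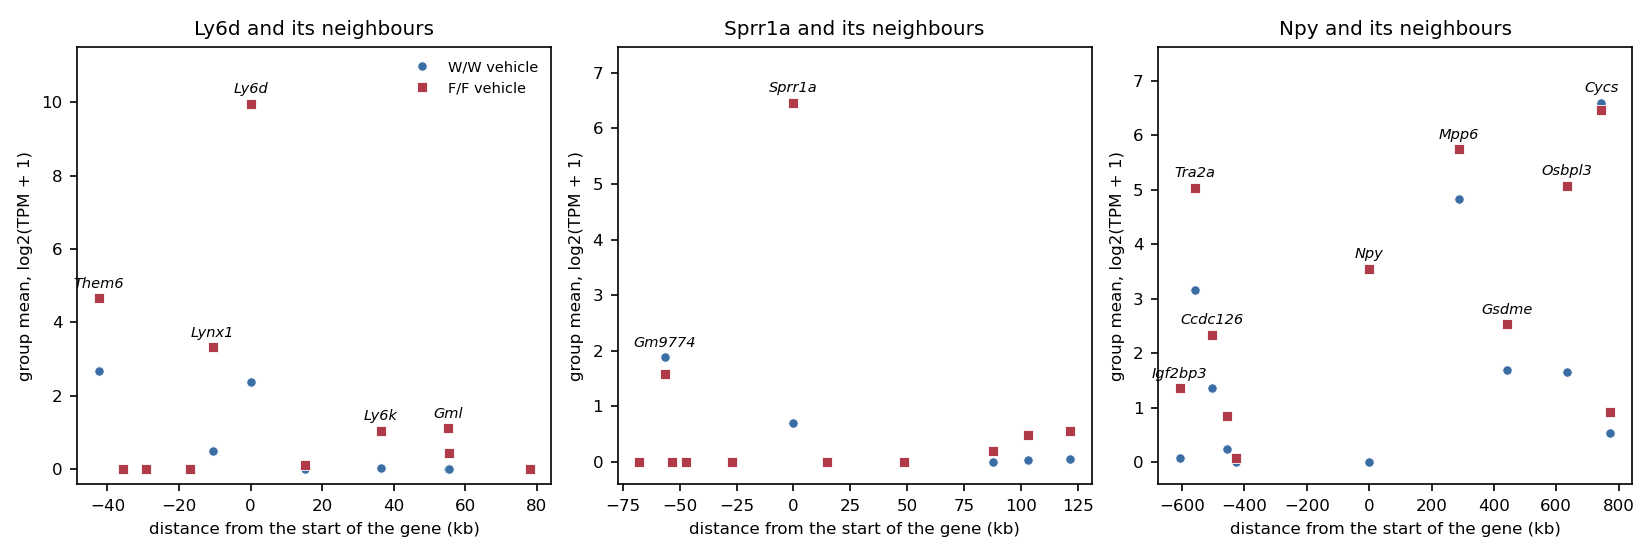
Group mean as log2(TPM + 1) in W/W and F/F on vehicle for Ly6d, Sprr1a, Npy and 10 protein-coding neighbours of each (5 on each side), against distance from the start of the gene in kb. Ly6d and Sprr1a stand above all of their 10 neighbours in F/F, while Npy lies among neighbours that are at least 287.5 kb away, several of which are also higher in F/F.

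The genes whose levels ran most like each chosen gene were found among 11195 tested genes whose highest group mean was at least 5 TPM, by Pearson's r of log2(TPM + 1) over the 36 libraries, with no p. For Ly6d they were Smpd3 (r = 0.97), a neutral sphingomyelinase, Anxa5 (0.97) and Anxa2 (0.97), annexins that bind membrane phospholipid, Enc1 (0.96) and Prdx3 (0.96), a mitochondrial peroxidase. On vehicle Smpd3 was at 2.43 TPM for W/W, 23.4 for W/F and 26.9 for F/F, and at 9.32 TPM in W/W and 3.91 TPM in W/F on T0901317. For Sprr1a they were Srxn1 (0.97), the sulfiredoxin that repairs oxidised peroxiredoxins, Nudt18 (0.96), the imprinted RNA H19 (0.96), Ly6d itself (0.95) and Sybu (0.95). On vehicle H19 was at 0.695 TPM for W/W, 94.1 for W/F and 230.3 for F/F. For Npy they were Camp (0.94), Myo15b (0.91), Ltf (0.91), Plekhn1 (0.91) and Mmp8 (0.90). Camp, Ltf and Mmp8 encode granule proteins of neutrophils, and on vehicle Camp was at 0.0656 TPM for W/W, 1.95 for W/F and 11.2 for F/F.

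Markers of several cell types moved with these genes, and in whole liver fewer cells of a type and less RNA per cell cannot be told apart. On vehicle, the summed level of 10 bile duct markers ran from 68.1 to 73.8 TPM over the W/W libraries, 1198 to 1634 TPM over those of W/F and 2988 to 3629 TPM over those of F/F, and all 10 were called higher in F/F, beside 69.3% of all genes. The sum of 9 macrophage markers ran likewise from 167 to 309, 2833 to 3709 and 3432 to 4411 TPM, and that of 8 neutrophil markers from 5.89 to 12.3, 92.5 to 169 and 160 to 462 TPM. Of the 9 macrophage markers, 7 were called higher in F/F and 1 lower. Lyz2 was at 91.3 TPM in W/W and 3228 TPM in F/F, while Clec4f was at 72.3 TPM in W/W and 0.354 TPM in F/F. Of 7 neutrophil markers tested, 6 were called higher in F/F and none lower. Stellate cell markers, 8 of 8 called higher in F/F, had median sums of 118, 679 and 1154 TPM in the order W/W, W/F, F/F. Hepatocyte markers, of which 4 of 8 were called lower in F/F, had median sums of 77649, 60426 and 37279 TPM. The part of these cell types in the levels of Ly6d, Sprr1a and Npy was not tested.

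Between vehicle and T0901317 in W/W, 10.8% of all genes were called, 1310 of 16638 higher and 484 lower. The marker counts that follow have to be read beside that share. The bile duct sum went from 68.1 to 73.8 TPM on vehicle to 106 to 186 TPM on T0901317, with no overlap and 1 of 10 markers called higher, and 2 of 8 stellate markers were called higher. None of the 9 macrophage and 7 neutrophil markers tested was called, and 2 of 8 hepatocyte markers were called lower. The part of these markers in the Ly6d difference was not tested. The sums of W/W and W/F on T0901317 overlapped. The bile duct sum was 120 to 293 TPM in W/F, and the macrophage sum ran from 185 to 374 TPM in W/W and 150 to 1002 TPM in W/F, while Ly6d was at 62.2 to 169 TPM in the W/W libraries and 2.81 to 32.1 TPM in the W/F libraries. In F/F on chow, where Ly6d was at 180 TPM, the bile duct sum ran from 747 to 1016 TPM and the macrophage sum from 514 to 804 TPM, below W/F on vehicle in both. Replicates 1 and 2 of that group, with less Ly6d and Sprr1a, had bile duct sums of 778 and 750 TPM, and replicates 3 and 4 had 747 and 1016 TPM. Their macrophage sums were 650 and 514 TPM against 804 and 787 TPM, so these were lower in the libraries with less Ly6d, and their part in that difference was not tested. B lineage and plasmacytoid dendritic cell markers were listed because Ly6d is known from early B cells. The sum over these 10 genes had group medians from 4.78 to 45.5 TPM. On vehicle its median was 11.4 TPM for W/W livers, 17.8 TPM for W/F livers and 45.5 TPM for F/F livers. Of 6 such markers tested, 3 were called higher in F/F than in W/W on vehicle and none lower, beside 69.3% of all genes that rose. In W/W on T0901317, where Ly6d was at 120 TPM, that sum had a median of 13.4 TPM. The part of these cells in the Ly6d level was not tested.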

How the data were processed

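PolyA RNA of 36 mouse livers was measured by sequencing, and groups and replicate numbers were taken from the labels. The authors deposited TPM in 1 table, and each column summed to 1e+06. Per the submitters' processing notes, Trimmomatic 0.36, STAR 2.5.2b and featureCounts of Subread 1.5.2 were used with GRCm38 (mm10). The annotation release is not given in the sources used here. TPM are relative, so a change in what a library is made of moves every gene. Read numbers were recovered from the steps of the values and GENCODE M21 exon lengths, matched for 49056 genes, and 93.7% to 95.6% of genes with under 20 reads lay within 0.1 of a whole read, where chance gives 20%.

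Values were analysed as log2(TPM + 1) with limma 3.58.1 in R 4.3.3, for the 16638 genes that reached 1 TPM in 4 or more libraries, with 1 mean per group and a trended variance. Tests were two-sided, with Benjamini-Hochberg adjustment over all 16638 genes and a threshold of 0.05, and the fit was tested on simulated data. Differences are on the log2(TPM + 1) scale, which understates changes of low genes. All contrasts with 1 control group share it. Alternatives were another pseudocount, other filters, median-of-ratios rescaling, a replicate block, fits of the compared groups only, quality weights, and each library left out. No batch is named in the labels.

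The members, gene lists and marker lists were chosen with earlier results of these data known. From each list the text names, among genes with a group mean of at least 1 TPM, some of the 4 highest and of the 4 that differed most between F/F and W/W on vehicle, with the 5 genes alike in pattern, tested neighbours and defining markers. Untested neighbours, Slurp1, Lypd2, Slurp2, the Sprr genes, Evpl, Tgm1 and Lor were named after their values were seen.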

Additional observations from a re-analysis of the deposited data

Results flagged for a closer look

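Of the 54 sets of 4 libraries (6 genes in 9 groups), 10 had 1 library far from the other 3, judged by its gap relative to the range of the set, and chance marks about 1 set in 20. Replicate 2 of W/F on T0901317 was such a library for Ly6d (32.1 TPM), Ly6a (78.5 TPM) and Ly6e (421 TPM). Replicate 2 of F/F on vehicle was one for Ly6a (130 TPM) and Ly6c1 (3.84 TPM), and replicate 3 of F/F on chow for Npy (0.411 TPM) and Ly6c1 (1.66 TPM). The others were Sprr1a in replicate 2 of W/W on T0901317 (26.8 TPM), Ly6a in replicate 4 of W/W on vehicle (19.4 TPM) and Ly6c1 in replicate 4 of W/F on vehicle (1.59 TPM). The sum of 10 pancreatic acinar and islet markers reached 85.0 TPM in W/W on vehicle, where its median was 0.505 TPM. In the other groups it was at most 1.84 TPM. The part of such cells in the contrasts with W/W on vehicle was not tested.

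Ly6e responded differently by genotype, with differences from the W/W response of -1.75 for T0901317 in W/F, 2.61 for diet in W/F and 1.15 for diet in F/F on the log2 scale. For Ly6d and Sprr1a, every W/W library on T0901317 lay above every W/W vehicle library. Every W/F library on T0901317 lay below every W/F vehicle library. The differences of the responses of -10.78 and -8.80 were not tested, since both genes were chosen for such changes.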

How the results depend on the processing

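Depth limits Npy and Ly6c1, which rest on 0 to 61 reads per library. Without W/F on T0901317 replicate 2, Ly6d's T0901317 difference in W/F was -7.01. After rescaling, the log2 difference of F/F from W/W on vehicle was 6.76 for Ly6d and 3.07 for Npy, and with a pseudocount of 0.1 it was 6.87 for Sprr1a and 6.75 for Npy. The number of contrasts in which Ly6a was called was 3 with no filter, 2 after rescaling and 3 to 7 with 1 library left out. That of Ly6c1 was 1 with no filter, 0 after rescaling, 1 with quality weights and 1 to 2 with 1 library left out. Differences of responses called were 5 with quality weights, 5 with the compared groups alone and 3 to 6 with 1 library left out. With the filter at 5 TPM, 5 Ly6 family genes and 5 neighbours were called on vehicle, and with no filter 8 NPY-list genes and 15 neighbours, since other genes were then tested. The differences of responses were not computed at 5 TPM, where Ly6c1 was not tested. The cause of the other shifts was not tested. Over the 9 group means, 2, 0 and 3 of the 5 genes most like Ly6d, Sprr1a and Npy were the same.

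Uncalled differences changed sign. With quality weights these were Ly6a for T0901317 in W/F (-0.28) and W/F minus W/W on T0901317 (-0.16) and the same for Ly6c1 (-0.14 and -0.13). Ly6c1 for T0901317 in W/F was -0.049 with a pseudocount of 0.1, and the Ly6a agonist response of W/F minus W/W was 0.12 after rescaling. With 1 library left out, Ly6a ranged from -0.52 to 0.44 for T0901317 in W/F, -0.19 to 0.17 for W/F minus W/W on chow and -0.38 to 0.58 for the same on T0901317. Ly6c1 ranged from -0.24 to 0.20, -0.18 to 0.013 and -0.19 to 0.17 in the same contrasts, and from -0.48 to 0.015 for T0901317 in F/F.

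With the replicate block, Ly6d differed between F/F and W/W on vehicle by 7.56, and Ly6a, Ly6c1 and Ly6e were called in 5, 2 and 7 contrasts, as without it. Over 144 pairs of libraries with the same number the median correlation of deviations from group means was 0.013, and it was -0.0064 for different numbers. The numbers thus showed no pairing as a whole. A link between some libraries cannot be told from this median, since 18 of the 144 pairs were over 0.1 and the highest was 0.30.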
